A study of Homo sapiens with 12 samples.

Results

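Lysosomes are the acidic organelles in which cells break down material taken up from outside or delivered by autophagy. The 33 genes described here were given by name: 15 encode subunits or accessory proteins of the proton pump that acidifies lysosomes, 8 encode hydrolases or an activator of hydrolases, and 10 encode lysosomal membrane and cholesterol-handling proteins or autophagy factors. All 33 were found among the 60583 gene names of the deposited count table, each at 1 locus. All 33 were also among the 21298 genes with enough counts to be tested, so no member dropped out at the filter on low counts.

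RNA was measured in cardiomyocytes derived from RUES2, a line of human embryonic stem cells, with the genotype given as WT. Cells at day 50 of differentiation spent 3 days on electrospun scaffolds, in RPMI with B27 and insulin. The control group was on 8% PVA (polyvinyl alcohol), which does not conduct, and the other group was on 9.75% PEDOT:PSS/PVA, a conductive blend, called PEDOT below. Each scaffold had 3 biological replicates with 2 technical libraries each (12 libraries), and the technical libraries of a replicate were added to give 6 sums. Both groups share the cell line, the age, the medium and the trypsin detachment, and no group without a scaffold was analysed here. What a biological replicate or a technical library is (a differentiation, a scaffold or a preparation) is not given in the sources used here, so a p-value here speaks only of the spread among these samples, and that spread may be technical.

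The vacuolar proton pump has a cytosolic V1 sector that splits ATP and a V0 sector in the membrane that carries protons, and the acid it makes is needed by the hydrolases inside the lysosome. Many genes of this system are switched on together by the transcription factor TFEB and its relatives, which bind the CLEAR element, a sequence built around the letters CACGTG. Heart muscle depends on the system: inherited loss of GAA (acid alpha-glucosidase) causes Pompe disease, loss of LAMP2 causes Danon disease and loss of GLA (alpha-galactosidase A) causes Fabry disease, each of which affects the heart.

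Because of that shared element, the promoter windows of the members were searched for CACGTG and for the longer TCACGTGA, each of which reads the same on both strands, and every TCACGTGA contains a CACGTG. RefSeq windows of assembly GRCh38.p14, from 250 bases before to 50 bases after a transcript start, were matched for 24 of the 33 members, and 9 had no entry (ATP6V1A, ATP6V1B2, ATP6V1C1, ATP6V1H, ATP6V0E1, PSAP, HEXA, ASAH1 and LAMP2). CACGTG stood in at least 1 window of 8 of the 24 members (33.3%) and in that of 2396 of 27305 genes (8.78%). By window, it stood in 8 of the members' 40 and in 2548 of all 35116 (7.26%). A gene with more windows has more places for a match. TCACGTGA stood in 5 of the 24 members (20.8%) and in 1.18% of genes. By window, it stood in 5 of the members' 40 and in 344 of all (0.98%). The windows of 4 of these 5 members are printed because they show how differently the element is arranged: 6 copies of CACGTG in LAMP1, 2 in MCOLN1 and in GAA, and 1 in ATP6V0D1. They run 5′ to 3′ on the gene's strand for 260 bases, ending 10 bases into the transcript, with CACGTG in capitals. LAMP1 is at chr13:113296989-113297248 (plus strand), MCOLN1 at chr19:7522374-7522633 (plus), GAA at chr17:80101331-80101590 (plus) and ATP6V0D1 at chr16:67481148-67481407 (minus).
LAMP1: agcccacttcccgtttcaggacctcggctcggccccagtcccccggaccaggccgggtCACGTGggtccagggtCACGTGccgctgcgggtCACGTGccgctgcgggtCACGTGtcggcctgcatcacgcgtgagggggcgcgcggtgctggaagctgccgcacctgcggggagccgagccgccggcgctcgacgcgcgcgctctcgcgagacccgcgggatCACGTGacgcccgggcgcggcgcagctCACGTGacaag
MCOLN1: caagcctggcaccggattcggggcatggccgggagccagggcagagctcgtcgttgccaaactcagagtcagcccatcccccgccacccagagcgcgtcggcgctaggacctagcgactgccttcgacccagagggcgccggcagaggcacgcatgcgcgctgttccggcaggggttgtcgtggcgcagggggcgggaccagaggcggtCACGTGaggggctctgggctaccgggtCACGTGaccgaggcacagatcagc
GAA: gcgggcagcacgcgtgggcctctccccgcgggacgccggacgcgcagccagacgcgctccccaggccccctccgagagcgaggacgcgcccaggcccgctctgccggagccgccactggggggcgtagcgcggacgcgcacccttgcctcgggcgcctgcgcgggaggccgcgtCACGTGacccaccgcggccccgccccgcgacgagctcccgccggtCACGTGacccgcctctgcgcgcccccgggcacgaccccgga
ATP6V0D1: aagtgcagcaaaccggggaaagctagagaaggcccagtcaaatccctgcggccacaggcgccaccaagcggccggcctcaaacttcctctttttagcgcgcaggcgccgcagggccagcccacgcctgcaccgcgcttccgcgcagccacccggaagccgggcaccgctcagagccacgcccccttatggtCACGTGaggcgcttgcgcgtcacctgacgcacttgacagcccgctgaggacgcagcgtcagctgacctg
In LAMP1 the 6 copies began 192, 176, 159, 142, 28 and 1 bases before the start, and those at 28 and 1 were part of a TCACGTGA. The copies of MCOLN1 began 41 and 14 bases before the start and those of GAA 76 and 31, and all 4 were part of a TCACGTGA. The single copy of ATP6V0D1 began 59 bases before the start and that of ATP6V1G1, the fifth member with TCACGTGA, 58 bases before. The other members with CACGTG were ATP6V0B (2 copies), NEU1 and CD63 (1 each). A match is only a description of letters in a window and shows no binding.

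The levels below are CPM (counts scaled to the library total and its TMM factor) divided by the exon length in kb as deposited. They are given as the mean (± SD) or the range over the 6 sums. This allows for unlike lengths, but the deposited length counts every annotated exon base of a gene name. It can thus exceed the length of a transcript, and the order of genes also depends on the annotation. ASAH1 (15378 bases) had more CPM than PSAP (3189 bases), 957.8 against 826.9, but less per kb. Among the pump genes, ATP6V1F, a small V1 subunit, had the highest level at 81.6 CPM per kb (range 73.4 to 95.7), followed by ATP6V1E1, a stalk subunit, at 35.0 (28.7 to 41.7) and ATP6V0E1, a small V0 subunit, at 32.95 (29.3 to 38.5). The subunits of the catalytic head were lower and close to each other: ATP6V1A, which holds the ATP-splitting site, ranged from 11.8 to 13.9 CPM per kb, and its partner ATP6V1B2 from 10.2 to 12.1. ATP6V1C1 and ATP6V1H, which join and regulate the V1 sector, ranged from 11.8 to 13.6 and from 8.57 to 12.3. The stalk genes ATP6V1G1 (25.6) and ATP6V1D (19.1) lay above the head subunits. In the V0 sector ATP6V0D1 stood at 20.5, ATP6V0B at 14.3 and ATP6V0A1 at 8.46. The accessory genes ATP6AP1 and ATP6AP2 (the prorenin receptor) stood at 17.8 and 11.9. ATP6V0C, the main subunit of the proton-carrying ring, was listed lowest of the pump at 3.77, but 1080 of its 1416 exon bases (76.3%) overlap other gene names on the same strand, and read pairs in such overlaps are not counted, so that its level is understated. No more than 4.89% of the exon bases of any other member overlapped in that way.

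Several pump subunits have other forms encoded by other genes, and how far these were detected differed. The forms ATP6V1B1, ATP6V1C2, ATP6V0D2 and ATP6V0A4 had too few counts to be tested. Over the 12 libraries ATP6V1B2 had 25458 counts and its renal form ATP6V1B1 had 2. ATP6V1C1 had 21617 and ATP6V1C2 had 49, ATP6V0D1 had 49344 and ATP6V0D2, the osteoclast form, had 40, and ATP6V0A1 had 27414 and ATP6V0A4 had 32. Other forms were measured at levels that could be tested. Per exon length, ATP6V0E2 stood at 9.16 CPM per kb beside 32.95 for ATP6V0E1, ATP6V1G2 at 5.95 beside 25.6 for ATP6V1G1, ATP6V0A2 at 3.37 beside 8.46 for ATP6V0A1, and ATP6V1E2 at 0.812 beside 35.0 for ATP6V1E1. ATP6V1G3, another form of the G subunit, had 0 counts.

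The hydrolase genes spanned the widest range. PSAP, whose product is cut into the saposins that help hydrolases reach lipids, had the highest level of all 33 genes at 259 ± 31.3 CPM per kb. ASAH1 (acid ceramidase) ranged from 43.8 to 77.0, and GAA from 12.95 to 16.6. NEU1 (sialidase 1), HEXA (the alpha subunit of beta-hexosaminidase), GUSB (beta-glucuronidase) and GLA followed at 6.82, 5.30, 4.27 and 3.19. LIPA, lysosomal acid lipase, had the lowest level of the 33 genes at 1.65 (1.08 to 2.26). GUSB has 12 gene names of copies in the table (GUSBP), which held 9278 counts against 4920 for GUSB itself, so its value is uncertain where reads match several copies.

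Of the membrane and autophagy genes, SQSTM1 (p62, a receptor that carries ubiquitinated cargo into autophagosomes) was highest at 59.8 CPM per kb and CD63, a tetraspanin of late endosomes and lysosomes, was next at 45.3. MAP1LC3B and GABARAPL1, the ubiquitin-like proteins attached to autophagosome membranes, stood at 32.2 and 26.8. LAMP1, the abundant glycoprotein of the lysosomal membrane, ranged from 25.6 to 30.6, above LAMP2 at 13.8 to 18.8. NPC2 and NPC1, which hand cholesterol out of the lysosome, stood at 12.4 and 3.78. TFEB itself ranged from 6.20 to 7.45, and MCOLN1, the calcium channel of the lysosomal membrane, from 2.52 to 3.52.

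**Figure D1:**
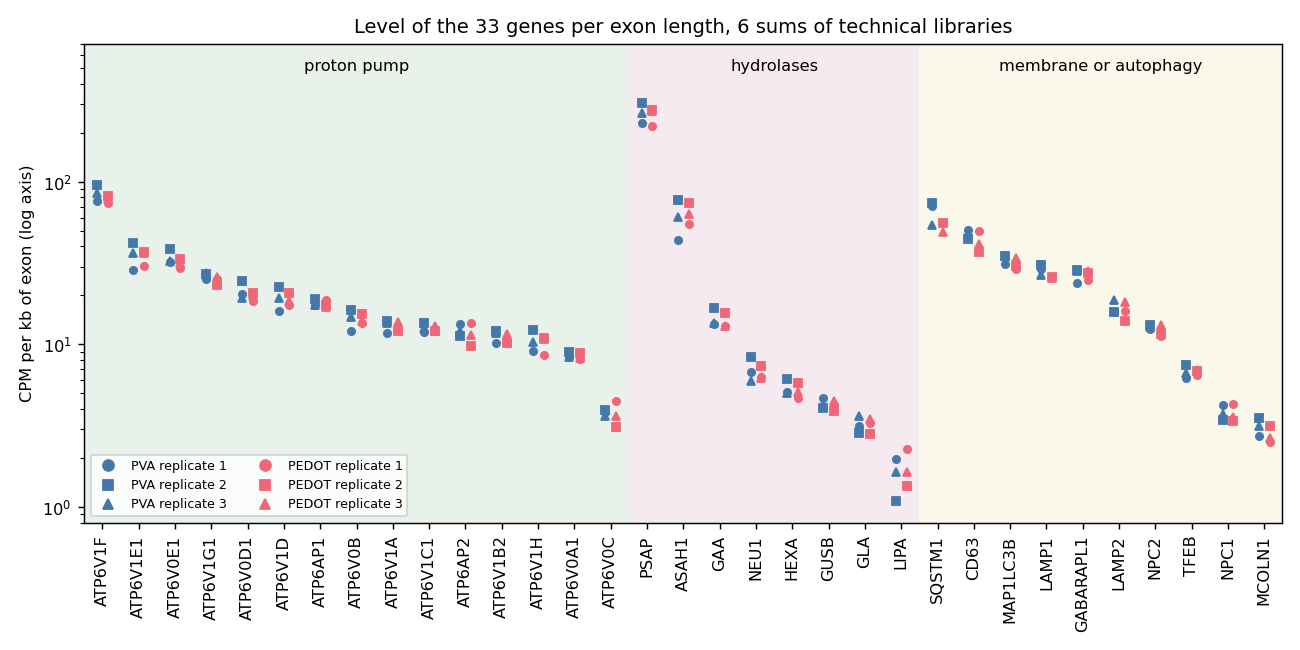
Level of each of the 33 genes as CPM per kb of exon (log axis), 1 symbol for each of the 6 sums, blue for PVA and red for PEDOT, with the symbol's shape giving the replicate number; genes are ordered by mean level within the 3 groups. PSAP is highest at 259 and LIPA lowest at 1.65, and the 6 sums of a gene lie close together on this scale.

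Library totals were 19.1 to 30.95 M counts (median 24.06 M), the sums held 44.5 to 57.5 M, and mitochondrial genes took 3.98 to 5.48% of a library. Heart muscle markers were abundant in every sum: the 10 genes of that list added up to 58760 to 79610 CPM on PVA and 67750 to 88550 on PEDOT. The 8 fibroblast markers added up to 816 to 3690 CPM on PVA and 841 to 6746 on PEDOT, the 5 smooth muscle markers to 1290 to 2193 and 1011 to 1822, and the 6 endothelial markers to 17.8 to 22.6 and 13.1 to 16.98. The 8 macrophage markers, a cell type rich in lysosomes, added up to no more than 4.96 CPM in any sum, with C1QA and FCGR3A at 0 in all, and the 5 endoderm and 5 neural markers to no more than 13.3 and 24.8.

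The first question was whether the conductive scaffold went with other levels of these genes. None of the 33 passed edgeR's test between scaffolds, with or without the replicate number as a block, at a Benjamini-Hochberg adjusted p of 0.05. The test without the block called 0 of 21298 genes (0%) and reached an unadjusted p under 0.05 for 190 genes (0.892%) and 0 of the 33 members. DESeq2 without the block also called 0 genes (126 at an unadjusted p under 0.05). With the block edgeR called 57 genes (0.268%, of which 0.197% lower on PEDOT) and 0 members. An unadjusted p under 0.05 was reached by 8.32% of all genes in this fit: with a lower level on PEDOT by 3 members (SQSTM1, LAMP1 and CD63) against 4.38% of all genes, and with a higher level by 0 members against 3.93%. Most fitted differences had the same sign and were small. Without the block, 30 of 33 members (90.9%) had a log2 fold change below 0 (lower on PEDOT) against 51.9% of all genes. The median was -0.06 over the members and -0.006 over all genes tested, and with the block it was also -0.06, with 29 members below 0. Since the RNA came from whole cultures, fewer cells of a type and less RNA per cell cannot be told apart.

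That shift came mainly from 1 pair of sums. In the pair with replicate number 2, 32 of 33 members were lower on PEDOT (54.6% of all genes) with a median log2 difference of -0.17 (all genes -0.02). In the pair numbered 1, 17 members were lower (50.3% of all genes) with a median of -0.003, and in the pair numbered 3, 19 (48.9%) with a median of -0.03. Without pair 2 the median over the members in the fit with the block was -0.02, and without PVA replicate 2 in the fit without it, -0.007. The members lower on PEDOT in all 3 pairs numbered 10 (30.3%, against 15.6% of all genes): ATP6V0A1, ATP6V0E1, ATP6V1F, ATP6V1G1, GAA, LAMP1, CD63, MCOLN1, SQSTM1 and MAP1LC3B. None was higher in all 3 (13.3% of all genes).

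Summed marker lists of cell types also differed between the scaffolds within pairs. The smooth muscle sum was lower on PEDOT in each pair (1822 against 2193, 1011 against 1290 and 1370 against 1945 CPM for numbers 1, 2 and 3), and 2 of its 5 genes passed the test with the block. ACTA2 and RGS5, which made up most of it, were lower in each pair. MYH11 was higher in each pair (49.7 against 45.7, 5.55 against 4.17 and 44.8 against 43.8 CPM). TAGLN and CNN1 were higher in pair 1 and lower in pairs 2 and 3. The macrophage sum was also lower on PEDOT in each pair (4.11 against 4.96, 2.24 against 3.59 and 3.45 against 3.69 CPM). Only 2 of its 8 genes were tested, and 0 passed. Most of it was TYROBP and CSF1R, of which CSF1R was higher in pair 1 and TYROBP in pair 3. The endothelial sum was lower in each pair too (16.98 against 17.8, 13.1 against 22.6 and 15.8 against 18.8 CPM, 0 of 6 passing). Most of it was KDR, lower in each pair (14.2 against 16.1, 12.1 against 20.8 and 13.95 against 17.3 CPM). PECAM1, CDH5 and TEK, each below 1 CPM, were higher on PEDOT in pairs 1 and 3 and lower in pair 2. The neural sum was lower in each pair (15.4 against 24.8, 4.63 against 7.19 and 11.8 against 15.2 CPM, 1 of 3 tested passing). The fibroblast sum was higher on PEDOT in each pair (6746 against 3690, 841 against 816 and 3617 against 3219 CPM), with 0 of 8 genes passing. COL1A1, COL1A2, COL3A1, DCN and LUM were higher in each pair, while PDGFRA, POSTN and TCF21 went both ways. The heart muscle sum was higher on PEDOT in each pair as well, with 1 of 10 passing. TTN made up the largest part of it (40850 against 34480, 54690 against 41790 and 51210 against 48590 CPM). TNNT2, MYH7, MYL7 and RYR2 were also higher in each pair. MYL4, NKX2-5 and PLN were higher in pair 1 and lower in pairs 2 and 3. ACTN2 was lower only in pair 3, and MYH6 was lower in pairs 1 and 2. The endoderm sum was slightly higher in each pair (13.3 against 13.1, 5.79 against 5.74 and 8.85 against 8.50 CPM, 0 of 3 tested passing). Of its genes only EPCAM was higher in each pair, and AFP was lower in each. TTR was lower in pairs 1 and 3 and had 0 CPM in pair 2. FOXA2 was lower in pairs 1 and 2, and APOA1 was lower only in pair 2. The part of these cell types in the members' differences was not tested.

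**Figure D2:**
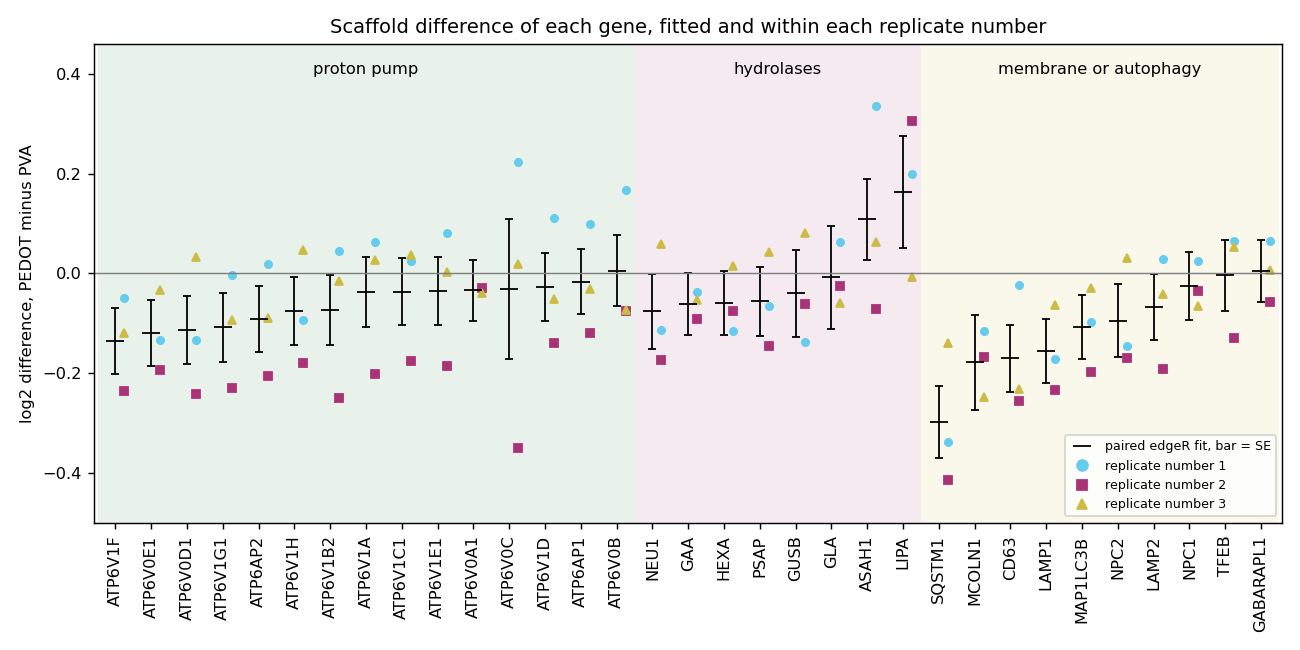
Log2 difference between scaffolds (PEDOT minus PVA) for each of the 33 genes: the black dash and bar are the blocked fit and its SE, and the coloured symbols are the differences within replicate numbers 1, 2 and 3. Almost all squares (number 2) lie below 0, the circles and triangles lie on both sides, and SQSTM1 at -0.30 ± 0.07 is farthest from 0.

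SQSTM1 had the largest difference between scaffolds. Its level was 530.2, 556 and 408 CPM in PVA replicates 1, 2 and 3 and 419, 417 and 370.3 CPM in PEDOT replicates 1, 2 and 3. It was lower on PEDOT in every pair, by log2 differences of -0.34, -0.41 and -0.14, while PVA replicate 3 lay below PEDOT replicates 1 and 2, so the scaffolds overlapped. The log2 fold change was -0.31 ± 0.14 (SE, unadjusted p = 0.0619, edgeR adjusted p = 1) without the block and -0.30 ± 0.07 (unadjusted p = 0.000953, edgeR adjusted p = 0.137) with it, a level 18.7% lower. The technical libraries of PVA replicate 3 differed from each other (448 and 362 CPM), and those of PEDOT replicate 3 hardly did (369.9 and 369.7). The adjusted p of the fit with the block passed the threshold in DESeq2 (0.0200), with every gene with a count tested (0.00259) and without pair 3 (0.0306), with log2 fold changes of -0.30, -0.29 and -0.38, and lay between 0.0522 and 0.623 in every other alternative run.

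LAMP1 was the only member whose scaffolds did not overlap, with PEDOT below PVA (2.31% of all genes). None had PEDOT above PVA (2.28%). The PVA replicates measured 166, 176 and 153 CPM and the PEDOT replicates 148, 149.5 and 147. The PEDOT sums lay within a narrow band just under the lowest PVA sum, although single PEDOT libraries reached 160.3 and 159.5 CPM. The fold change with the block was -0.16 ± 0.06 on the log2 scale (unadjusted p = 0.0293, edgeR adjusted p = 0.535). The scaffold took 64.7% of the variance of its log2 CPM over the 6 sums, the highest share among the members, and the replicate number 22.0%.

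CD63 measured 133.5, 117 and 128 CPM in the PVA replicates, against 131, 97.8 and 109 in the PEDOT replicates, close to equal in pair 1 and lower on PEDOT in pairs 2 and 3 (fit with the block -0.17 ± 0.07, unadjusted p = 0.0240, edgeR adjusted p = 0.507). MCOLN1 measured 10.8, 13.9 and 12.5 CPM in the PVA replicates, against 9.96, 12.4 and 10.5 in the PEDOT replicates, lower on PEDOT in each pair but overlapping between scaffolds (-0.18 ± 0.09, adjusted p = 0.677). MAP1LC3B had log2 differences of -0.10, -0.20 and -0.03 in the 3 pairs. TFEB, 1 of the factors known to bind the shared element, measured 35.0, 42.1 and 37.7 CPM in the PVA replicates, against 36.6, 38.5 and 39.1 in the PEDOT replicates, with no common direction in the pairs. The other 4 genes of this group (LAMP2, NPC1, NPC2 and GABARAPL1) had differences of either sign among the pairs. Over the 10 genes the median with the block was -0.10, and 5 of 10 were lower in all 3 pairs. It was -0.06 both without pair 2 and with only the higher-numbered technical library of each replicate.

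**Figure D3:**
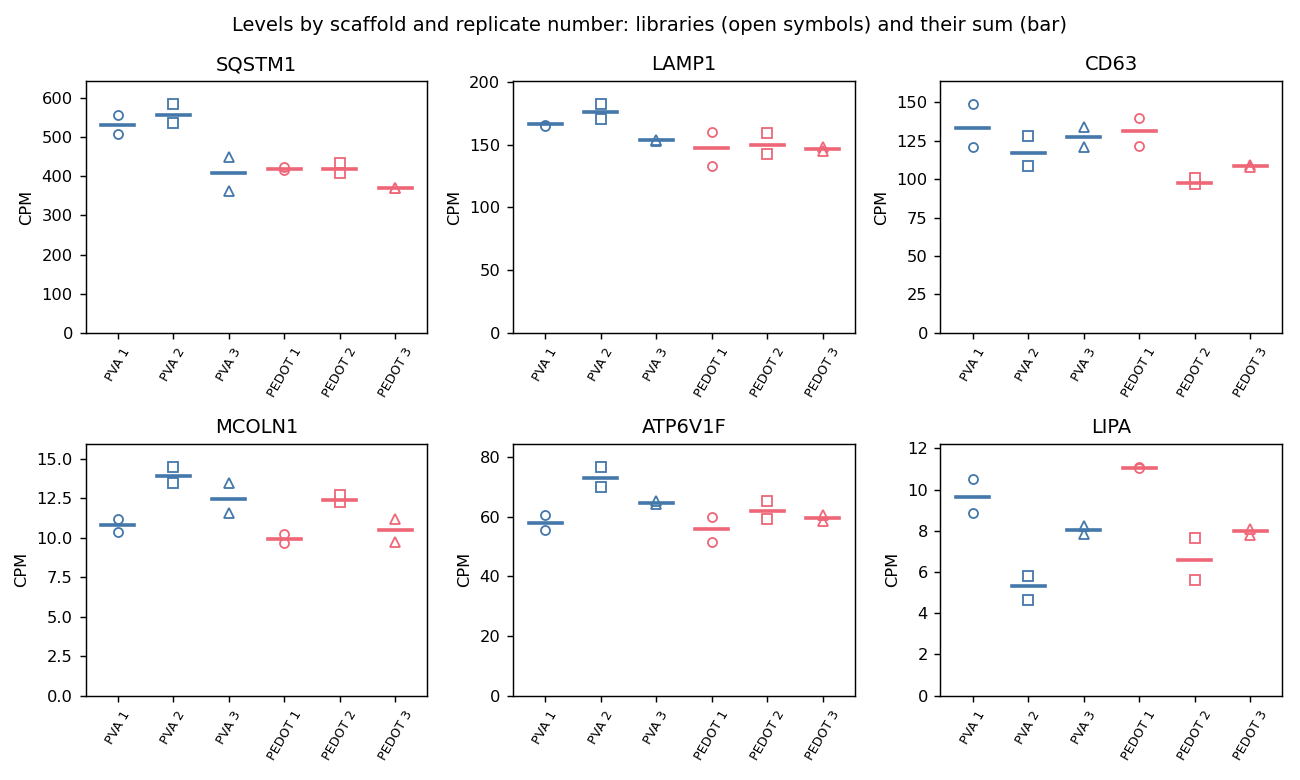
CPM (linear axes from 0) of SQSTM1, LAMP1, CD63, MCOLN1, ATP6V1F and LIPA by scaffold and replicate number; open symbols are technical libraries and the bar is the value of their sum. For LAMP1 the 3 PEDOT bars (147 to 149.5) lie below the 3 PVA bars (153 to 176), and in the other 5 panels the bars of the scaffolds overlap.

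Among the 15 pump genes, all had a log2 fold change below 0 without the block, with a median of -0.05, and 14 with it, with a median of -0.04. ATP6V1F had the smallest p of the group, at 57.9, 72.9 and 64.8 CPM in the PVA replicates against 56.0, 61.9 and 59.6 in the PEDOT replicates. The difference was largest in pair 2 (-0.24 on the log2 scale) and smallest in pair 1 (-0.05), and the fit with the block gave -0.14 ± 0.07 (edgeR adjusted p = 0.623). ATP6V0E1 (-0.12 ± 0.07), ATP6V0D1 (-0.11 ± 0.07) and ATP6V1G1 (-0.11 ± 0.07) did not pass either, with adjusted p-values of 0.697, 0.736 and 0.762. All 15 pump genes were lower on PEDOT in pair 2 (median -0.19), against 6 in pair 1 (median 0.03) and 9 in pair 3 (median -0.03). The sign of the group's median depended on pair 2: without that pair it was 0.01 with the block, and without PVA replicate 2 it was 0.01 without the block. The V1, V0 and accessory genes had medians of -0.06, -0.03 and -0.05 with the block, and the difference between sectors was not tested.

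The hydrolase genes had no common direction in pair 3 (3 of 8 lower, median 0.03) and medians of -0.05 and -0.07 in pairs 1 and 2. Over the group the median was -0.05 with either fit. It changed sign, to 0.01, with only the higher-numbered technical libraries (both fits), and to 0.05 without PVA replicate 2 in the fit without the block. LIPA and ASAH1 stood against the rest with positive values. LIPA had 9.63, 5.30 and 8.01 CPM in the PVA replicates, against 11.1, 6.56 and 7.97 in the PEDOT replicates, higher in pairs 1 and 2 and level in pair 3 (0.16 ± 0.11 with the block, edgeR adjusted p = 0.789). ASAH1 had 673, 1184 and 936 CPM in the PVA replicates, against 849, 1127 and 978 in the PEDOT replicates, and its difference of 0.11 ± 0.08 (adjusted p = 0.808) came from pair 1 and was -0.003 without it. NEU1 (-0.08 ± 0.07), GAA (-0.06 ± 0.06) and HEXA (-0.06 ± 0.06) had adjusted p-values of 0.869, 0.879 and 0.890 with the block.

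The members whose promoter window held CACGTG did not pass the scaffold test either. Over the 8 with the letters the blocked fit had a median of -0.11 (log2), and 7 of them were below 0. The 16 matched members without the letters had a median of -0.03, and 14 were below 0. LAMP1 and CD63 are in the first set and SQSTM1 in the second, so the member with the largest difference had no CACGTG in its windows. These medians are a description of sets that differ in number and composition, and the difference between them was not tested.

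The larger differences of these genes lay between replicate numbers. In an F test of the replicate number beside the scaffold, 15 of 33 members passed (45.5%), against 31.8% of all genes tested. Whether called or not, 24 of 33 were higher in number 2 than in number 1 (49.6% of all genes). Of the 15, 10 were higher in replicate number 2 than in number 1 (14.6% of all genes passed in that direction) and 5 were lower (17.2%). By group, 6 of 8 hydrolase genes, 5 of 15 pump genes and 4 of 10 membrane or autophagy genes passed. The replicate number took a median of 70.4% of the variance of the members' log2 CPM over the 6 sums, the same as over all genes, and the scaffold 5.36% (all genes 6.10%). These shares are not corrected for the number of levels. The replicate number has more levels than the scaffold, so noise alone would give the replicate number the larger share. For the hydrolase genes the median share of the replicate number was 90.6%. The technical libraries of a replicate lay closer together, with a median absolute log2 difference of 0.09 over the members (0.17 over all genes).

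ASAH1 had the largest positive difference between replicate numbers 2 and 1. With both scaffolds averaged it measured 761, 1155 and 957 CPM in replicate numbers 1, 2 and 3. Number 2 was higher than number 1 by 0.61 ± 0.10 on the log2 scale, or 1.53-fold (edgeR adjusted p of the F test = 0.00103), and the 4 libraries of number 2 (1087 to 1208 CPM) lay above the 8 others (660 to 1045 CPM). PSAP followed the same order with 712, 919 and 850.0 CPM (0.37 ± 0.09 for number 2 against 1, adjusted p = 0.0113). GAA, HEXA and NEU1 were also highest in number 2, by 0.29 ± 0.08, 0.28 ± 0.08 and 0.26 ± 0.09 against number 1, while number 3 lay close to number 1 (0.01, 0.05 and -0.10). Their adjusted p-values were 0.0107, 0.0227 and 0.0172.

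LIPA went the other way. Its level was 10.3, 5.93 and 7.99 CPM in replicate numbers 1, 2 and 3, so that number 2 was lower than number 1 by 0.80 ± 0.14 on the log2 scale, or 0.573 times its level (edgeR adjusted p of the F test = 0.00158). The libraries of number 1 (8.87 to 11.1 CPM) lay above all others (4.62 to 8.23 CPM). GLA (9.05, 8.04 and 10.0 CPM) and GUSB (17.4, 15.6 and 16.9 CPM) did not pass, with adjusted p-values of 0.161 and 0.477. The hydrolases therefore moved apart between replicate numbers: 5 passed with a higher level in number 2 than in number 1 and LIPA with a lower one.

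In the pump, ATP6V1E1 measured 92.7, 123.2 and 114 CPM in numbers 1, 2 and 3 and was 0.41 ± 0.08 higher in number 2 than in number 1 (edgeR adjusted p = 0.00474). ATP6V1H (0.39 ± 0.08, adjusted p = 0.00777) and ATP6V1D (0.36 ± 0.08, adjusted p = 0.0116) followed it. ATP6AP2 was lower in number 2, at 128, 99.8 and 112 CPM (-0.36 ± 0.08, adjusted p = 0.0103). ATP6V0B passed at 0.30 ± 0.09 (adjusted p = 0.0468), but it was lost in 4 of 7 other settings and without any 1 of 9 of the 12 libraries. The catalytic subunits ATP6V1A and ATP6V1B2 did not pass, with differences of 0.10 and 0.11 between numbers 2 and 1.

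Among membrane and autophagy genes, LAMP2 was highest in number 3 (150, 139 and 174 CPM, 0.33 ± 0.08 for number 3 against 2, edgeR adjusted p = 0.0172). SQSTM1 was lowest in number 3 (475, 487 and 389 CPM, -0.31 ± 0.09 for number 3 against 2, adjusted p = 0.0254). NPC1 (41.5, 33.04 and 35.5 CPM, adjusted p = 0.0192) and CD63 (132, 107 and 118 CPM, adjusted p = 0.0280) were highest in number 1. LAMP1, with the clearest split between scaffolds, differed little between numbers (157, 163 and 150.1 CPM, adjusted p = 0.524). Of these calls, CD63 was lost without any 1 of 3 libraries and SQSTM1 without any 1 of 2, HEXA was lost without any 1 of 3 and NEU1 without 1, and CD63, SQSTM1, NPC1 and ATP6V1D were lost when only the lower-numbered technical libraries were used and HEXA, LAMP2 and NEU1 with only the higher-numbered ones.

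**Figure D4:**
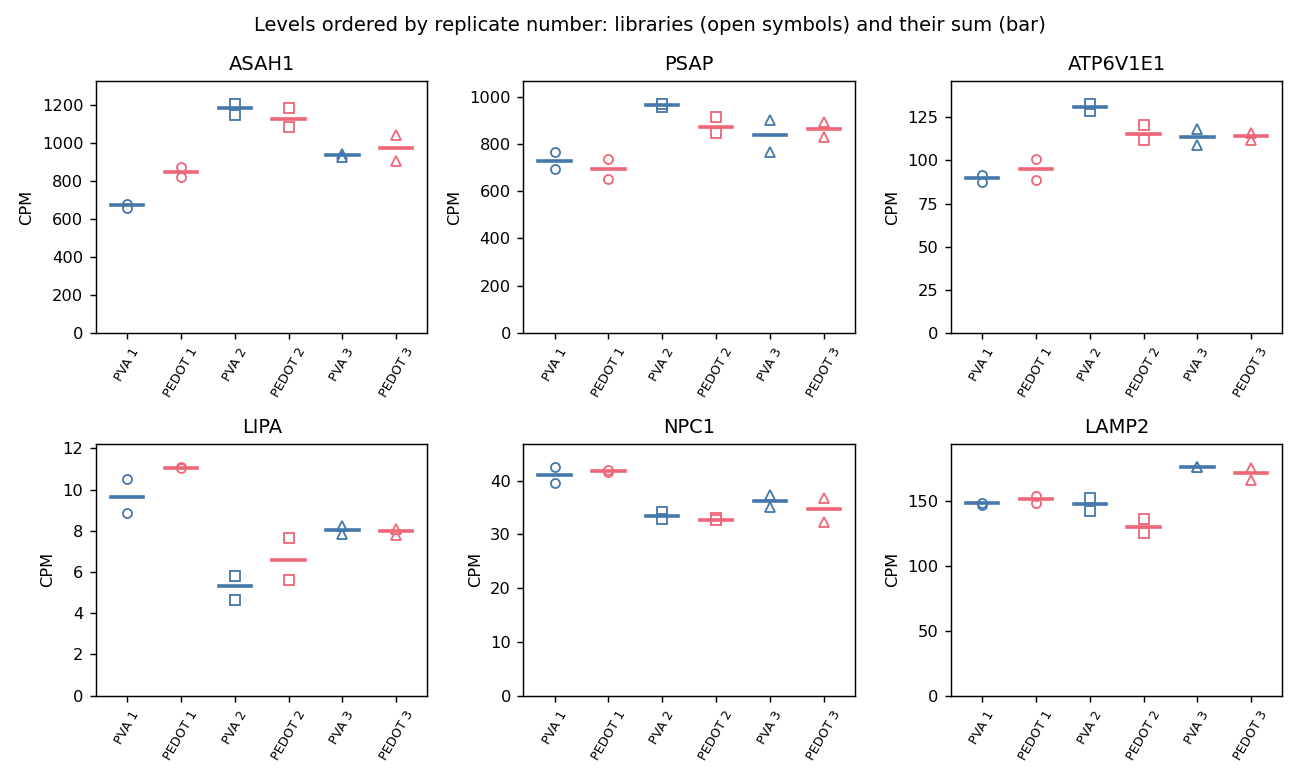
CPM (linear axes from 0) of ASAH1, PSAP, ATP6V1E1, LIPA, NPC1 and LAMP2 ordered by replicate number, PVA in blue and PEDOT in red; open symbols are technical libraries and bars the value of their sum. ASAH1, PSAP and ATP6V1E1 are highest in number 2, LIPA and NPC1 in number 1 and LAMP2 in number 3, on both scaffolds.

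Cell type markers moved with the replicate number too. The heart muscle list added up to 63260, 82350 and 81430 CPM in numbers 1, 2 and 3. Of its 10 genes, 8 passed the F test of the replicate number, 7 higher in number 2 than in number 1 and 1 lower. MYH7 was lower in number 2 than in number 1 on both scaffolds, and PLN was lower only on PEDOT. The fibroblast list added up to 5218, 829 and 3418 CPM, and all 8 of its genes passed the same F test, 7 of them lower in number 2 than in number 1. The smooth muscle list added up to 2007, 1151 and 1658 CPM (5 of 5 passed, all lower in number 2). The macrophage list added up to 4.53, 2.91 and 3.57 CPM, and 1 of its 2 tested genes passed, lower in number 2. TYROBP was lower in number 2 than in number 1 on both scaffolds. CSF1R was higher in number 2 on PVA (1.83 against 1.19 CPM) and lower on PEDOT (1.27 against 1.45 CPM). The members highest in number 2 (ASAH1, PSAP, GAA, ATP6V1E1) were thus highest where the fibroblast and smooth muscle sums were lowest, and LIPA, NPC1, CD63 and ATP6AP2 were lowest there. The part of the cell composition in these differences was not tested.

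**Figure D5:**
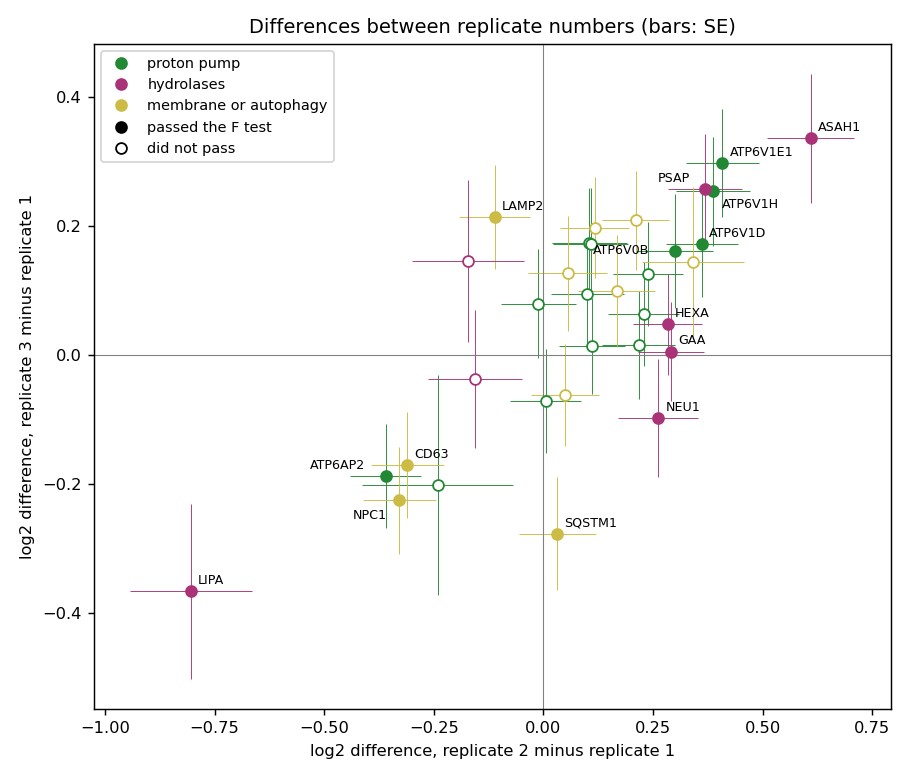
Log2 difference of replicate number 2 (x) and 3 (y) from number 1 for each of the 33 genes, with SE bars, coloured by group; filled symbols passed the F test of the replicate number. ASAH1 (0.61, 0.34) and LIPA (-0.80, -0.37) lie at opposite ends, and SQSTM1 and LAMP2 lie off the diagonal because number 3 differs from both others.

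The members with CACGTG had a median difference between numbers 2 and 1 of 0.24 (6 of 8 above 0, 4 passing the F test). The 16 matched members without it had a median of 0.04 (10 above 0, 6 passing). Of all genes, 49.6% were above 0 and 31.8% passed. GAA, NEU1, ATP6V0B and CD63 were the 4, and CD63 was lower in number 2. The 9 members without a window are in neither set. Among them ASAH1 (0.61), ATP6V1H (0.39), PSAP (0.37) and HEXA (0.28) passed with a higher level in number 2, and LAMP2 (-0.11) with a lower one. The difference between the sets was not tested. TFEB itself measured 35.8, 40.3 and 38.4 CPM in numbers 1, 2 and 3 and did not pass (adjusted p = 0.316).

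A further 79 genes of the same pathways (other pump subunits, hydrolases, membrane proteins, and autophagy and TFEB-mTORC1 genes) were examined beside the members, of which 74 were tested. None passed between scaffolds in either fit. Without the block 51 of 74 (68.9%) had a fold change below 0, against 90.9% of the members and 51.9% of all genes, and the median was -0.04. With the block, 0 reached an unadjusted p under 0.05 with a higher level on PEDOT (3.93% of all genes) and 6 of 74 with a lower one (4.38% of all genes). The 6 were ARSB, SMPD1, PPT1, ACP2, SCARB2 and CD9. SCARB2 (LIMP-2), the receptor that brings glucocerebrosidase to the lysosome, had the smallest unadjusted p of these, at 306.5, 231 and 273 CPM in the PVA replicates against 275, 198 and 244.5 in the PEDOT replicates (-0.18 ± 0.06, edgeR adjusted p = 0.427). By list, 19 of 24 other hydrolases, 4 of 4 tested pump subunits, 21 of 31 autophagy and TFEB-mTORC1 genes and 7 of 15 membrane proteins were below 0. Of the autophagy and TFEB-mTORC1 genes, 27 of 31 were lower on PEDOT in pair 2, 16 in pair 1 and 9 in pair 3.

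By replicate number, 25 of the 74 (33.8%) passed, a share near that of all genes, with 13 higher and 12 lower in number 2 than in number 1. GM2A, which encodes the activator protein that helps hexosaminidase degrade a ganglioside, measured 81.4, 130.5 and 119 CPM in the PVA replicates against 90.5, 113 and 113.5 in the PEDOT replicates, low in number 1 on both scaffolds (0.50 for number 2 against 1, edgeR adjusted p = 0.00132). CALCOCO2 (NDP52), an autophagy receptor like SQSTM1, was 0.63 higher in number 2 than in number 1 (adjusted p = 0.000274), and OPTN, another receptor, differed by -0.44 (adjusted p = 0.000693).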

How the data were processed

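Ribodepleted total RNA of 12 libraries was sequenced, and the authors deposited 1 table that holds, for each gene name, the unnormalized counts of read pairs. Per the file headers, counting used featureCounts 2.0.1 in paired-end, reversely stranded mode on GENCODE release 33, with no option for reads that match several genes. The submitters' processing notes name FastQC, STAR, DESeq2, edgeR and build hg38; for STAR, version and settings were not given in the sources used here. Library totals were 19.1 to 30.95 M counts.

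Counts of the technical libraries of a replicate differed by more than sampling noise (chi-square of 5.86 to 14.5 per gene), so none was a repeat deposit, and they were summed. Genes were kept with filterByExpr (minimum count 10, minimum total 15). After TMM scaling, edgeR 4.0.16 (R 4.3.3) fitted the 6 sums by quasi-likelihood with glmQLFit and glmQLFTest. Tests were two-sided, with p-values adjusted by Benjamini-Hochberg over 21298 genes and a threshold of 0.05. They were made for the scaffold, for the scaffold with the replicate number as a block, and by an F test for the replicate number beside the scaffold. An SE is the size of a log2 fold change over the root of its F statistic. Log2 CPM used a prior count of 2. After the scaffold mean was taken off each gene, sums that share a number correlated across genes at 0.503 to 0.703 and other pairs of sums at -0.609 to -0.005. By the rule that every pair exceeds 0.1, the numbers pair the samples. This pairing comes from the values and from no label, so both fits are given where a call or count differs.

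Scaffold fold changes with their errors are printed for the 4 genes of smallest p in each group in either fit. Other genes and libraries were singled out after their values were seen. The members and gene lists were chosen with earlier results of these data known. Promoter windows are from RefSeq (GRCh38.p14). Alternatives were DESeq2 1.42.0, other scalings and filters, 1 technical library per replicate, and leaving out replicates, pairs or libraries. The test scripts were tested on simulated data.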

Additional observations from a re-analysis of the deposited data

How the results depend on the processing

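Replicate numbers are shared between the scaffolds, and the fit with the replicate block called 57 genes where the fit without it called 0; neither called a member. The count of 57 became 96 with DESeq2, 389 when all counted genes were tested, 37 with library totals only, 16 and 4 with only the lower- or higher-numbered technical library of each replicate, and 1 both with upper-quartile scaling and with genes of a mean CPM of 5 or more. It ranged from 4 to 284 when 1 pair or 1 library was left out. Members called with the block were 1 (SQSTM1) under DESeq2, 1 (SQSTM1) when all counted genes were tested, and 0 to 1 over the fits with a pair or library left out. The block changed no other call among the members. Without the block, 0 genes and 0 members were called whichever replicate or library was left out, and DESeq2 reached an unadjusted p under 0.05 for 126 genes.

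The members below 0 in the fit without the block numbered 30, and between 21 (higher-numbered libraries) and 31 (library totals only) in the other settings. With only the higher-numbered libraries the hydrolase median was 0.013 without and 0.0139 with the block, and NEU1 turned to 0.0237 without the block and 0.0366 with it. Over the fits with a replicate, pair or library left out, the medians without the block ranged from -0.11 to -0.01 for all members, -0.10 to 0.0476 for hydrolases, -0.15 to -0.07 for membrane or autophagy genes and -0.15 to 0.01 for pump genes. With the block these ranges were -0.09 to -0.02, -0.08 to -0.01, -0.14 to -0.06 and -0.09 to 0.01. Single genes that changed sign were ASAH1 (-0.11 to 0.30 without the block and -0.0026 to 0.20 with it), GAA (-0.16 to 0.0536), HEXA (-0.15 to 0.0416), LIPA (-0.0711 to 0.36) and NEU1 (-0.19 to 0.0584), the last 4 without the block. A fit that leaves 2 sums on 1 scaffold borrows its spread from the rest. By replicate number, 5810 to 6743 genes and 12 to 18 members were called with 1 library left out, and 12 to 15 members in the other settings. Where no reason is given, the cause was not tested. With 3 sums a scaffold, the blocked fit left an SE of 0.06 to 0.14 on the members' log2 differences, which limits what could be detected.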
